A study of Mus musculus with 8 samples.

Results

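Histone lysine demethylases are described here by the 16 array probes that carry the name of Kdm2b, Kdm3a, Kdm4a, Kdm4b, Kdm4c, Kdm4d, Kdm5a, Kdm5b, Kdm5c or Kdm6b, among 55681 non-control probes with 36163 gene names. All probes with these 10 names were kept, whatever their signal, and each was read alone. All cells derived from E14Tg2A, a mouse ES cell line of the 129/Ola strain, with no genetic change named in the labels. These cells were grown undifferentiated with LIF and serum (ES, 0 days in vitro, DIV), then as floating aggregates in defined medium without serum (epiblast-like aggregates, ELA, 2 DIV), as adherent neural progenitor cells on poly-ornithine and laminin (NPC, 6 DIV) and as neural precursors after withdrawal of the B27 supplement (NPC/Neu, 10 DIV). At each stage 1 Agilent array held total RNA and 1 array held Ago-RNA, the RNA precipitated from the cytosolic fraction with the anti-pan Ago antibody 2A8, which gave 8 arrays on 1 slide. The RNA on an array was a pool of 3 independent experiments, so no condition had a replicate and no test between stages was possible.

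Histone lysine demethylases remove methyl groups from lysines of histone tails. The members of this list are dioxygenases with a Jumonji domain that need iron and 2-oxoglutarate, and they differ in the lysine they serve. Kdm2b removes methyl groups from H3K36 and recruits a variant Polycomb complex to CpG islands, Kdm3a and the Kdm4 enzymes act on H3K9 (Kdm4a to Kdm4c also on H3K36), the Kdm5 enzymes on H3K4, and Kdm6b on H3K27. Argonaute (Ago) proteins hold miRNAs in the RNA-induced silencing complex, and an mRNA that is paired with a miRNA is recovered with Ago. The miR-290 family is abundant in ES cells. The study reports that its cluster fell and the miR-302 cluster rose from ES to ELA. Members of both families share a seed, the bases 2 to 8 that pair with the target. The miRNAs let-7 and miR-9 are found in differentiating and neural cells.

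The mature miRNAs are shown because their seeds (in capitals, 5′ to 3′, from RefSeq) were searched in the 3′ UTR of every member.
mmu-miR-294-3p: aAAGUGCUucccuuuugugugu
mmu-miR-302d-3p: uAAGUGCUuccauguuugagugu
mmu-let-7a-5p: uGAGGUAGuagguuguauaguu
mmu-miR-9-5p: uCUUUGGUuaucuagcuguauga
The first pair share the seed AAGUGCU, and the DNA word opposite it is AGCACTT. On the transcript strand this word stood in the 3′ UTR of only 1 of the 10 members, Kdm5a, beside 11.8% of all 19472 annotated 3′ UTRs. The word opposite the let-7 seed, CTACCTC, was also in Kdm5a alone among the members (7.38% of all 3′ UTRs), and ACCAAAG, opposite the miR-9 seed, was in none of them (9.93% of all).

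Kdm5a had by far the longest 3′ UTR, with 5381 bases, while those of the other members had between 480 and 1503 bases and the median over all genes was 709. Its sites, with the seed match in capitals, are shown as DNA of the plus strand of chromosome 6 (mm9). The first starts at base 1320 of the 3′ UTR at chr6:120390519-120390548, the second at base 3202 at chr6:120392401-120392430, and the let-7 site at base 1813 at chr6:120391012-120391041.
AAGUGCU site 1 of Kdm5a: gtacaaggagttAGCACTTccttcttcatt
AAGUGCU site 2 of Kdm5a: acactaagtcctAGCACTTgggagtcagag
let-7 site of Kdm5a: tgggtatgagggCTACCTCaaaaggcatct
These are matches of letters, and no binding at them was measured. Seeds of other miRNAs, coding sequence and sites shorter than 7 bases were not searched.

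The place of a probe in its gene decides which RNA it reads. In the transcript with the longest coding sequence of each gene (GENCODE, mm9), 11 probes lay in the 3′ UTR, or across the stop codon in the case of 1 Kdm2b probe, and 1 probe (Kdm5a) lay in coding sequence. Another 3 lay in an intron of that transcript, where a shorter transcript of the same gene had an exon, and the last was the Kdm4d probe, in the 3′ UTR of a gene that gave no signal. The Kdm5a probe is shown because it crosses a splice junction, so that it has no unbroken match in the genome and reads spliced RNA.
Kdm5a probe: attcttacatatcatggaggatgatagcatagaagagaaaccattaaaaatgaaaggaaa
It spans chr6:120380280-120381871 on the plus strand and lies 5958 bases from the end of the transcript. No other annotated gene overlapped a member probe. Both Kdm2b probes also matched chromosome 4 over their whole length, where the annotation places the pseudogene Gm12397 under 1 of them, and the Kdm4d probe had another match on chromosome 9 with no gene annotated there. The signal of these copies cannot be told apart from that of Kdm2b and Kdm4d.

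Of the 16 probes, 14 probes for 9 genes were well above background on every array by the scanner software's criterion, as were 24621 of all probes. No spot on any array was saturated. Levels are given as log2 normalized signal, which is not set against the level of another probe. Ago enrichment (E) is the log2 signal of a probe in Ago-RNA minus that in total RNA, and its variation (ΔE) is E at the later stage minus E at the earlier stage. Values past 1 on the log2 scale, a 2-fold difference, were counted as called. Noise between spots was taken from 399 probes printed in 10 spots each. It gave a spot SD of 0.21 to 0.23 for E, of 0.31 for ΔE and of 0.22 for a difference in total RNA. This SD does not cover variation between cultures or precipitations. The upper quartile of the spot signal was highest for Ago-RNA of ES cells (3039, against 1060 to 1774 on the other 7 arrays), and every E in ES and every ΔE from ES to ELA rests on this array. On the total RNA arrays all 7 naive ES markers, Nanog and Zfp42 among them, were highest in ES, 4 of 5 primed epiblast markers were highest in ELA (Eomes was highest in NPC/Neu, at 12.69), and 5 of 6 neural progenitor markers and 5 of 5 neuron markers were highest in NPC/Neu (Hes5 was highest in NPC). Of markers of other lineages, Gata6, Afp and Mixl1 were not well above background on any total RNA array, while Foxa2 went from 7.01 in ES to 11.24 in NPC/Neu, and their part in the results was not tested.

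In ES cells the demethylase mRNAs were mostly enriched with Ago. E was 1 or more for 10 of 15 member probes, of 7 genes, beside 11.9% of all probes measured, and the median was 1.49 beside 0.04 over all probes. At ELA, 0 of 14 reached this level (4.6% of all), and the highest member, a Kdm5c probe, had E of 0.65. In NPC 6 of 14 were at 1 or more (6.27% of all) and in NPC/Neu 10 of 14 (13.4% of all). The 12 probes in exons of the longest coding transcript, for 9 genes, had a median E of 1.61 (ES), 0.36 (ELA), 1.02 (NPC) and 1.48 (NPC/Neu). Their E was lowest at ELA in 12 of 12 cases. With a Kdm5b probe in an intron added, it was lowest there for 13 of 14 member probes, beside 30.8% of all probes. Among the last 3 stages alone, ELA was lowest for 13 of 14 members and for 40.0% of all probes. The ES arrays enter these values only through the shared normalization. Without the ES Ago-RNA array in it, ELA was still lowest of these stages for 12 of 12 exonic probes. The study singled out this family on the same arrays, by its Ago enrichment in ES against ELA. A low E at ELA is therefore part of that choice, and these counts are a description and not independent evidence. E was also less spread at ELA over all probes, with quartiles of -0.30 and 0.29 against -0.49 and 0.54 in ES. By rank the 12 exonic probes had E above that of 82.6% to 99.8% of all probes in ES and above that of 27.6% to 89.1% in ELA. The ranks were 35.5% to 99.0% in NPC and 74.1% to 99.4% in NPC/Neu.

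**Figure D1:**
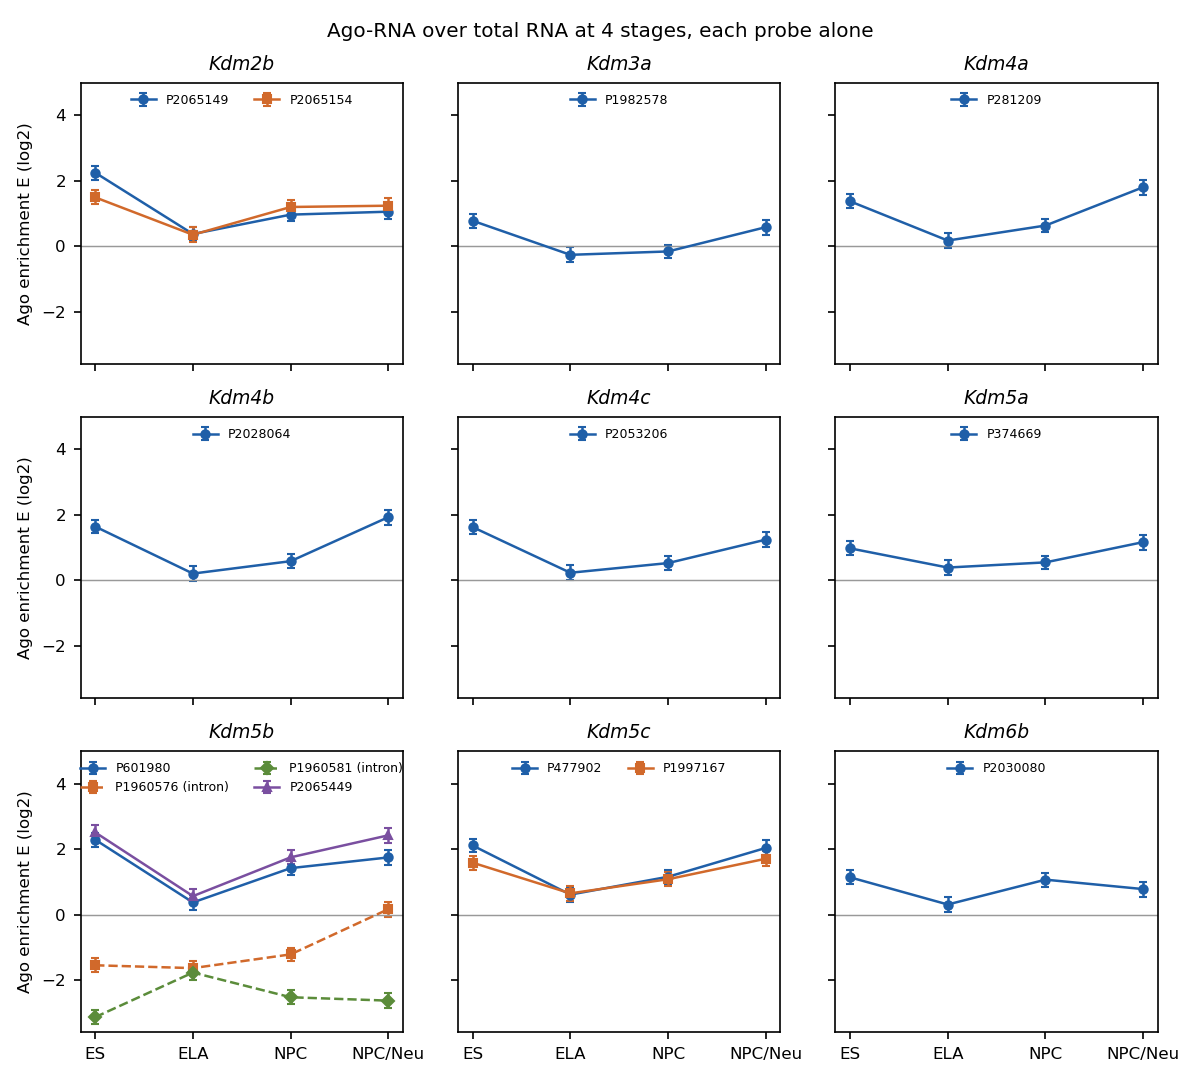
Ago enrichment (E, Ago-RNA minus total RNA on the log2 scale, vertical axis) at the 4 stages (horizontal axis) for the 14 probes well above background on every array, 1 panel per gene. Each point rests on 1 pair of arrays, bars are 1 spot SD, and dashed lines mark probes in an intron of the longest coding transcript. Exonic probes dip at ELA in every panel, to between -0.27 and 0.65, and the dashed Kdm5b probes lie below 0 at the first 3 stages.

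From ES to ELA, ΔE was -1 or lower for 9 of 14 member probes, of 7 genes (7.04% of all probes), and the median was -1.17 beside -0.01 over all probes. The study chose this enzyme family on the same arrays, so this count is a description of the chosen genes and not independent evidence. Probes with a high E in ES also fell more often in general: among those with E of 1 or more in ES, 43.1% of all and 8 of 10 member probes had ΔE of -1 or lower, with medians of -0.91 and -1.42. The stricter criteria of the study for release (Ago-RNA above the binding threshold, E of 2 or more in ES and 0.5 or less in ELA, ΔE of -1.5 or lower) were met by 0.394% of all probes and by 2 of 14 members, 1 of Kdm2b and 1 of Kdm5b. The other 3′ UTR probe of Kdm5b and 1 Kdm5c probe missed them only by E in ELA, at 0.56 and 0.61. For its later analyses, including the figure of single Kdm genes, the study relaxed the limit of 0.5. Counts under the relaxed limit are not given here. The calls at 0.5 depended on the processing. With separate normalization of the Ago-RNA and total RNA arrays 0 members met the criteria, since E in ELA was 0.63 for Kdm2b and 0.85 for Kdm5b. With 75th percentile scaling 1 did, as E of Kdm2b in ES was 1.43.

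The part of each fraction in the lower E at ELA differed between probes. Of the 12 exonic probes, 11 had less Ago-RNA in ELA than in ES, with a median difference of -1.07 beside 0.05 over all probes. Total RNA was higher in ELA for 9 of the 12, with a median difference of 0.25 beside 0.02 over all probes. This median lay within the quartiles of all probes (-0.25 and 0.28), and every exonic probe differed by less than 1. The shares of all probes with such differences were not counted. The drop in Ago-RNA was the larger part for 9 of 12 probes, and the gain in total RNA for 3 of 12. These were Kdm6b (Ago-RNA 0.09, total RNA 0.92), Kdm4b (-0.69 and 0.75) and the Kdm2b probe across the stop codon (-0.36 and 0.79). With 75th percentile scaling the other Kdm2b probe joined them (-0.57 and 0.60). For Kdm3a both fractions were lower, Ago-RNA by -1.85 and total RNA by -0.81. Total RNA was also lower for Kdm4c (-0.18) and Kdm5a (-0.03), within the spot SD of 0.22.

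**Figure D2:**
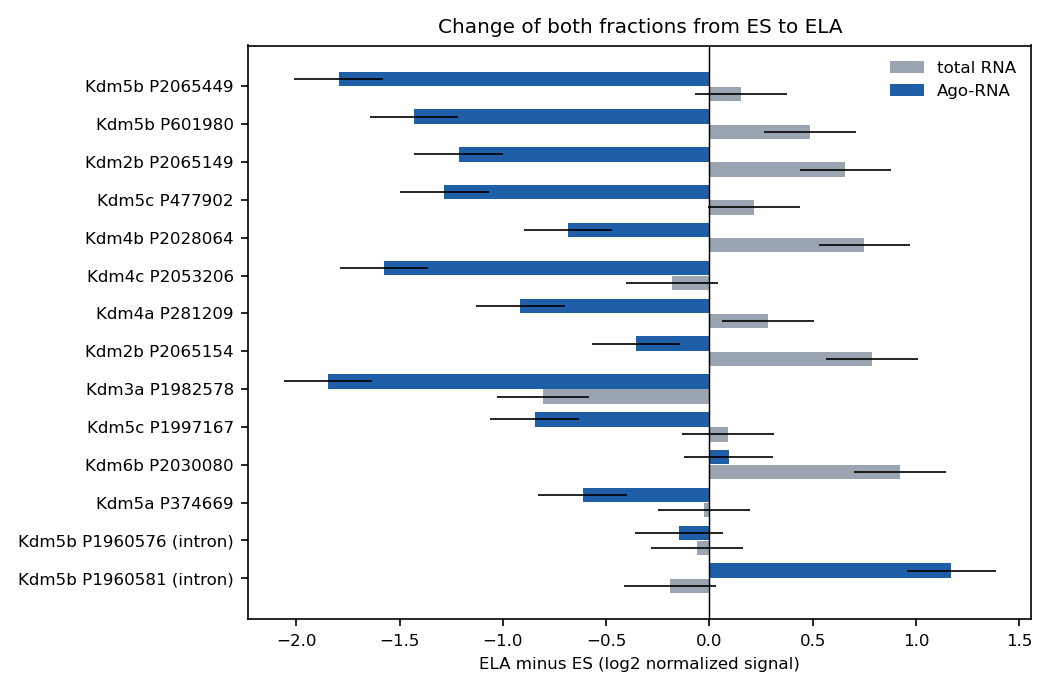
Difference between ELA and ES in log2 normalized signal (horizontal axis) for Ago-RNA (blue) and total RNA (grey) of each probe well above background on every array, ordered by ΔE with the lowest at the top. Bars start at 0 and error bars are 1 spot SD. Ago-RNA is lower in ELA for 12 of the 14 probes, while total RNA differs by -0.81 to 0.92.

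The H3K36 demethylase Kdm2b lies on chromosome 5 of mm9, from 123320677 to 123465089 on the minus strand. The probe near the end of its 3′ UTR, 11 bases from the transcript end, had total RNA of 14.72 (ES), 15.38 (ELA), 15.00 (NPC) and 15.25 (NPC/Neu). Its Ago-RNA was 16.96, 15.75, 15.97 and 16.30 at the same stages. Ago-RNA was thus highest in ES, where total RNA was lowest, and E went from 2.24 to 0.37, 0.96 and 1.05. The ΔE of -1.87 from ES to ELA is a 3.66-fold loss of enrichment (ΔE was -1.17 with the scanner's processed signal scaled to the 75th percentile), and the difference in E between NPC/Neu and ES was -1.19. With that scaling the latter was -0.54, no longer past 1. The probe across the stop codon, 1037 bases from the end, had total RNA of 10.43, 11.22, 10.28 and 9.97 and Ago-RNA of 11.92, 11.57, 11.47 and 11.20. Its E was 1.49, 0.35, 1.2 and 1.24. Both probes therefore had their lowest E and their highest total RNA at ELA. In NPC/Neu total RNA differed from ES by 0.53 at the 3′ probe and by -0.47 at the stop codon, but by -0.19 and -0.37, and so in the same direction, with 75th percentile scaling.

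Kdm3a, a H3K9 demethylase on chromosome 6 (71538968 to 71582899, minus strand), had the lowest E of the exonic probes at every stage. Total RNA was 14.52 (ES), 13.72 (ELA), 14.96 (NPC) and 14.80 (NPC/Neu), and Ago-RNA was 15.30, 13.45, 14.80 and 15.37. E was 0.78, -0.27, -0.16 and 0.58. The negative values in ELA and NPC turned to 0.20 and 0.18 with a separate normalization of the 4 Ago-RNA and the 4 total RNA arrays. ΔE from ES to ELA was -1.04, close to the limit of the call. Total RNA then rose by 1.24 from ELA to NPC, back above the ES level.

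The Kdm4 enzymes, which remove methyl groups from H3K9 and H3K36, shared the course of E and differed in total RNA. Kdm4a (chromosome 4, 117809562 to 117852648, minus strand) had total RNA of 12.12 (ES), 12.40 (ELA), 12.90 (NPC) and 13.67 (NPC/Neu) at its 3′ UTR probe, and Ago-RNA of 13.49, 12.57, 13.52 and 15.47. Both fractions were highest in NPC/Neu. E was 1.37, 0.17, 0.63 and 1.80.
Kdm4b (chromosome 17, 56465485 to 56542293, plus strand) followed the same course, with total RNA of 12.01, 12.76, 13.65 and 13.75 and Ago-RNA of 13.65, 12.97, 14.24 and 15.68. Its E was 1.64, 0.21, 0.59 and 1.93. For these genes E in NPC/Neu lay above E in ES by 0.43 and 0.29, beside a spot SD of 0.31. Kdm4c (chromosome 4, 73888401 to 74051764, plus strand) went the other way in total RNA, with 13.29, 13.11, 11.56 and 11.35, and its Ago-RNA was 14.92, 13.34, 12.09 and 12.59. Its E was 1.63, 0.23, 0.53 and 1.25, again lowest at ELA. Its total RNA differed by only -0.18 from ES to ELA, within the spot SD of 0.22. Most of the fall came in the next step, from ELA to NPC (-1.55).

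A second Kdm4a probe lay in an intron of the longest coding transcript, across the end of the coding sequence of the short transcript Kdm4a-003. It was well above background on only 4 arrays, with 7.34 for ES Ago-RNA and 6.95, 7.09 and 7.52 for total RNA in ES, NPC and NPC/Neu. Its E in ES was 0.38, and in NPC/Neu total RNA was at least 1.48-fold higher than Ago-RNA. Kdm4d (chromosome 9, 14266992 to 14304926, minus strand) was not well above background on any array, with values between 6.42 and 7.15, so no difference is given for it.

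Among the H3K4 demethylases, Kdm5b (chromosome 1, 136456748 to 136529454, plus strand) had the highest enrichment of all members and also the lowest, at different probes. The pair in the 3′ UTR of the full-length transcript Kdm5b-001, 438 and 1349 bases from its end, agreed in course. The probe nearer the end had total RNA of 11.61 (ES), 12.09 (ELA), 11.06 (NPC) and 11.25 (NPC/Neu) and Ago-RNA of 13.90, 12.47, 12.48 and 13.00. The one farther from the end had total RNA of 16.12, 16.27, 15.77 and 16.22 and Ago-RNA of 18.63, 16.84, 17.53 and 18.64. E of the former was 2.29, 0.37, 1.42 and 1.75, and E of the latter was 2.51, 0.56, 1.75 and 2.42. These were the only members with ΔE past 1 from ELA to NPC, at 1.05 and 1.19 (2 of 14 members beside 1.8% of all probes). In this step the probe nearer the end had an Ago-RNA difference of 0.01 and a total RNA difference of -1.04. The farther probe had 0.69 and -0.50. Total RNA of the pair did not differ by 1 or more between ES and any later stage, and the ES to ELA loss of enrichment, 3.78-fold and 3.86-fold, lay mostly in the Ago-RNA (-1.43 and -1.80, beside 0.49 and 0.15 for total RNA). For the farther probe this size depended on the scaling: with 75th percentile scaling its ΔE was -0.82.

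The other pair of Kdm5b probes lay in introns of Kdm5b-001. The probe 46.4 kb from the gene start was in the 3′ UTR of the short transcript Kdm5b-002, and the probe at 71.0 kb was in the 3′ UTR of Kdm5b-003, which runs on past the splice site that Kdm5b-001 uses. The former had total RNA of 10.88, 10.69, 11.10 and 11.40 and Ago-RNA of 7.75, 8.92, 8.57 and 8.77. It was depleted from Ago-RNA at every stage, with E of -3.13, -1.77, -2.53 and -2.63. Its ES value moved with the processing, between -2.95 and -4.29, and its ΔE from ES to ELA of 1.36 ran opposite to that of the 3′ UTR pair. Its ES Ago-RNA lay just under the binding threshold of 7.81.
The probe at 71.0 kb had total RNA of 11.40, 11.34, 11.26 and 12.10 and Ago-RNA of 9.86, 9.71, 10.05 and 12.26. E was -1.55, -1.64 and -1.22 at the first 3 stages and 0.17 in NPC/Neu, where Ago-RNA was 2.21 above NPC. Only 246 bases lie between this probe and the next one in genomic position, the 3′ UTR probe with E of 2.51 in ES. That 3′ UTR probe also lies partly in an exon of Kdm5b-003.

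**Figure D3:**
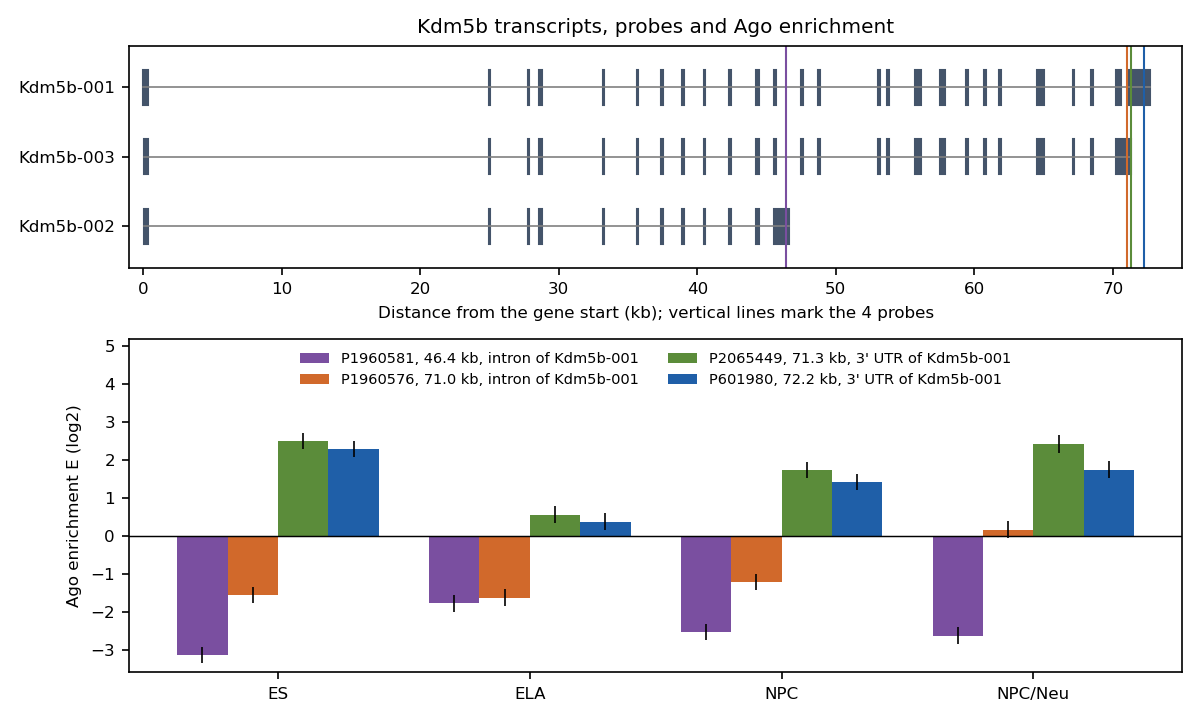
Upper panel: exons (boxes) of 3 Kdm5b transcripts against distance from the gene start (kb), with vertical lines at the 4 probes. Lower panel: E (log2) of each probe at the 4 stages as bars from 0, with 1 spot SD. The pair in introns of Kdm5b-001 lies below 0 except for 0.17 at 71.0 kb in NPC/Neu, and the pair in its 3′ UTR lies above 0 at every stage.

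These were the only member probes with E of -1 or lower in ES (2 of 15, beside 12.2% of all probes). Over all probes of named genes, those in an intron of the longest coding transcript had a median E of -0.10 in ES (n = 449) and those in the 3′ UTR 0.25 (n = 11184), and 20.7% and 6.17% had E of -1 or lower. The array design does not separate RNA of the shorter transcripts from unspliced RNA of the full gene, and Ago-RNA came from the cytosolic fraction. The part of either in the disagreement was not tested.

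Kdm5a (chromosome 6, 120314117 to 120394592, plus strand) had total RNA of 12.20, 12.18, 12.71 and 12.65 and Ago-RNA of 13.18, 12.57, 13.26 and 13.82. E was 0.98 (ES), 0.39 (ELA), 0.55 (NPC) and 1.17 (NPC/Neu). Its ΔE of -0.59 from ES to ELA was the smallest of the 12 exonic probes. This probe was also the only exonic one in coding sequence and the farthest from a transcript end. A link of ΔE to the place of the probe or to the AGCACTT word in this 3′ UTR was not tested.

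Kdm5c, the X-linked member of the group (chromosome X, 148667563 to 148709078, plus strand), was read by a pair of 3′ UTR probes. The probe 7 bases from the end had total RNA of 13.58, 13.80 and 13.51 at the first 3 stages and its highest level, 0.41 above ES, in NPC/Neu. Its Ago-RNA was 15.69, 14.41, 14.67 and 16.03, and its E was 2.11, 0.61, 1.16 and 2.04. The probe 333 bases from the end had total RNA of 9.07, 9.16, 8.77 and 8.62, Ago-RNA of 10.66, 9.81, 9.85 and 10.33, and E of 1.59, 0.65, 1.08 and 1.71. The ΔE of -1.5 and -0.94 lay on either side of the call. Total RNA of Kdm5c did not change by 1 or more at any stage, and E in NPC/Neu was within 1 spot SD of its ES value at both probes, with differences of -0.07 and 0.12.

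The H3K27 demethylase Kdm6b (chromosome 11, 69212010 to 69227177, minus strand) changed most in total RNA. Its probe had 10.57 (ES), 11.50 (ELA), 13.19 (NPC) and 13.67 (NPC/Neu), a rise of 3.09 or 8.54-fold over the whole course. Ago-RNA was 11.71, 11.80, 14.25 and 14.45, and E was 1.14, 0.31, 1.07 and 0.78. Ago-RNA did not follow the first step of the rise and followed the second, by 2.45 beside 1.69 for total RNA.

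From ES to NPC/Neu total RNA rose by 1 or more for 3 of 15 member probes (16.1% of all probes), of Kdm6b, Kdm4b and Kdm4a (3.09, 1.74 and 1.55), and fell for 1 of 15 (15.6% of all), of Kdm4c, by 1.94. These shares are near those of all probes. The other probes differed by -0.47 to 0.69. Among them, the positive differences of the bright probes of Kdm2b, Kdm3a, Kdm5b and Kdm5c (0.53, 0.27, 0.09 and 0.41) were negative with scaling to the 75th percentile (-0.19, -0.43, -0.77 and -0.15). In bulk RNA a lower level per cell and fewer cells with the RNA cannot be told apart.

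**Figure D4:**
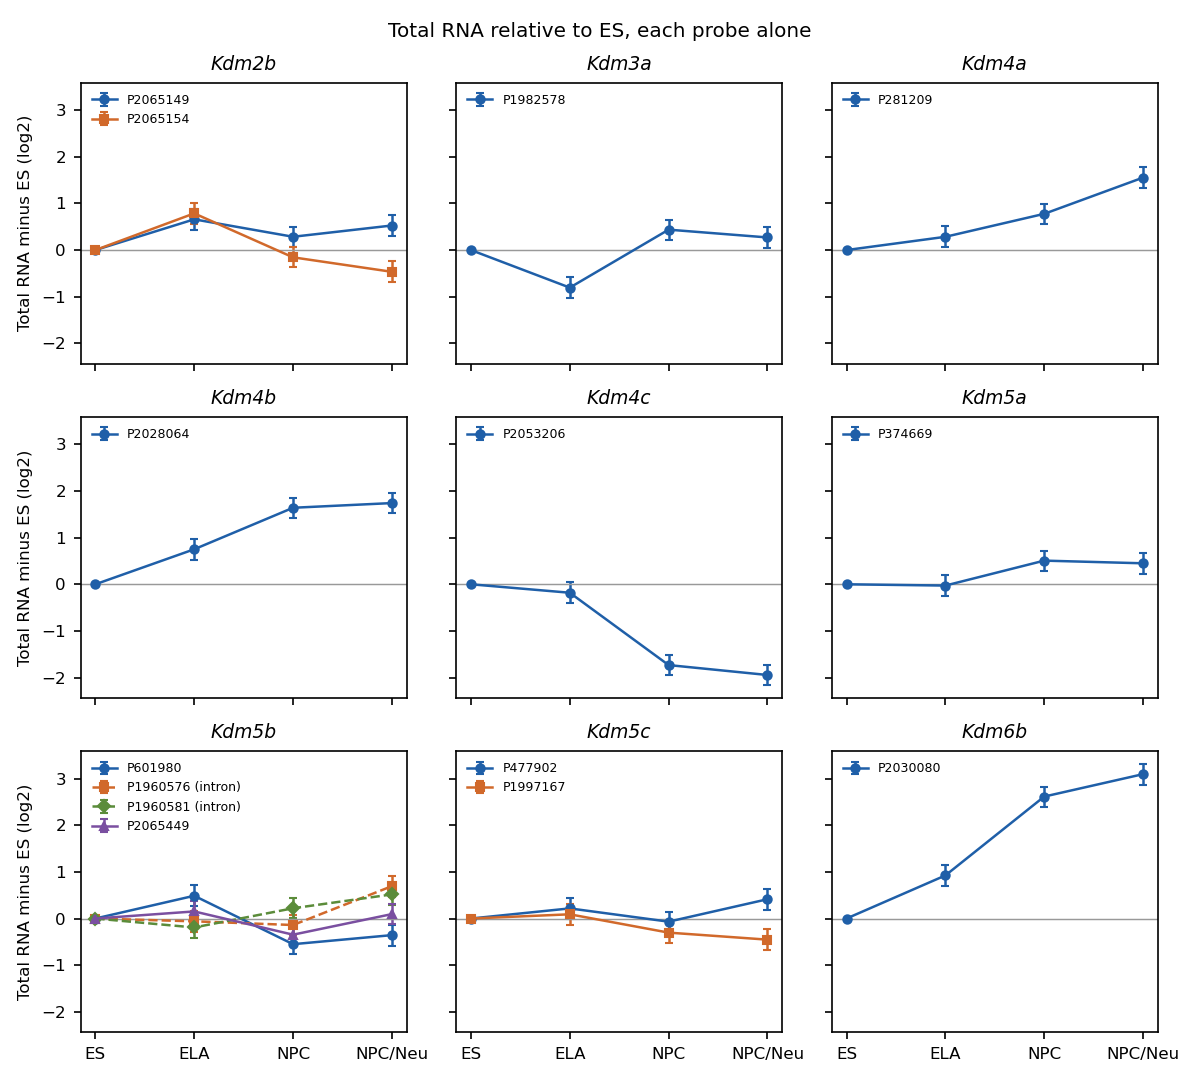
Total RNA at each stage minus total RNA in ES (log2, vertical axis) for the 14 probes well above background on every array, 1 panel per gene, with 1 spot SD of the difference. Kdm6b, Kdm4b and Kdm4a end above 1, Kdm4c ends at -1.94, and the other probes stay between -0.81 and 0.79 at all stages.

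In the last step, from NPC to NPC/Neu, ΔE was 1 or more for 3 of 14 member probes (2.49% of all), Kdm4a at 1.17, Kdm4b at 1.35 and the Kdm5b probe at 71.0 kb at 1.38. Of the 12 exonic probes, 11 had a positive ΔE in this step, with a median of 0.65. The median over all probes was 0.03, with quartiles of -0.33 and 0.36. Kdm6b was the exception at -0.29, within the spot SD. Neither this step nor total RNA uses the ES Ago-RNA array, and without it in the normalization the counts were the same. Over the whole course ΔE was past -1 only for the 3′ probe of Kdm2b among the exonic probes, and for none of them with 75th percentile scaling (-0.54 for that probe).

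Other demethylases and related Jumonji proteins outside the member list were also enriched in ES. Of their 20 probes measured in ES, 13 had E of 1 or more (11.9% of all probes) and the median was 1.06. From ES to ELA 6 of 19 had ΔE of -1 or lower (7.04% of all), 0 had 1 or more, and the median was -0.67. Of 18 probes well above background on every array, E was lowest at ELA for 8 (30.8% of all probes) and in NPC for 9. The medians at the last 3 stages were 0.43, 0.45 and 0.74. The lowest ΔE was that of Jarid2, a Jumonji protein of PRC2 that was put on this list although it has no demethylase activity, whose E went from 2.22 to 0.60 (ΔE of -1.62). The highest was a probe of Jhdm1d, a H3K9 and H3K27 demethylase, with 0.46. In total RNA from ES to NPC/Neu, 3 of 20 rose and 2 fell (16.1% and 15.6% of all probes). The range was from 3.35 for Phf2 to -2.76 for Hr, both of the Jumonji group.

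Writers of the same marks were counted from lists drawn up beside the members. The lists set the mark given for each gene, Ash1l and Mll5 included, and activity on it was not tested here. Of all probes, 11.9% had E of 1 or more in ES and 7.04% had ΔE of -1 or lower from ES to ELA. Total RNA rose for 16.1% and fell for 15.6% of all probes from ES to NPC/Neu. For H3K4 writers, 9 of 16 probes had E of 1 or more in ES and 2 of 16 had ΔE of -1 or lower from ES to ELA, with a median ΔE of -0.56. Their range ran from -1.12 for the methyltransferase Ash1l to 1.89 for Dpy30, a shared subunit of the MLL complexes. In total RNA 4 rose and 3 fell, from 3.02 for Mll5 to -2.23 for Dpy30.
For H3K9 writers, 6 of 10 had E of 1 or more and 4 of 10 had ΔE of -1 or lower, with a median of -0.94. The lowest was Ehmt2 (G9a) at -1.56 and the highest Suv39h1 at 1.33. Total RNA fell for 1 of 10, a Setdb2 probe at -1.77, while another Setdb2 probe gave 0.70.
H3K36 writers had 5 of 12 probes with E of 1 or more, 2 of 12 with ΔE of -1 or lower and a median ΔE of -0.19, between Setd2 at -1.33 and Setmar at 0.88. Total RNA rose for 5 of 12, up to 3.20 for a probe of Whsc1, and the lowest value was -0.94 for Whsc1l1.
The H3K27 writers of PRC2 had 1 of 6 with E of 1 or more and 0 of 6 with ΔE past 1 in either direction, with a median of 0.04, from Eed at -0.97 to Ezh1 at 0.90. Total RNA fell for 3 of 5, down to -1.57 for Eed, and Ezh2 had the highest value at 0.72.
Of the partners of Kdm2b in its variant Polycomb complex, 3 of 12 had E of 1 or more and 3 of 12 had ΔE of -1 or lower, with a median of -0.44. The range was from Usp7, a deubiquitinase, at -1.82 to a Yaf2 probe at 0.75. In total RNA 3 of 12 rose, up to 2.61 for another Yaf2 probe, and Rybp was lowest at -0.97.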

How the data were processed

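Total RNA and Ago-RNA of 4 stages were measured on 8 one-color Agilent SurePrint G3 Mouse arrays, 1 per condition. The authors deposited spot intensity as written by the scanner software (Feature Extraction 10.7.3.1 in the file headers, 9.1 in the submitters' processing notes), not normalized between arrays. The study's methods state background correction and quantile normalization with limma. The labels state 50 ng of labeled RNA, another amount than the methods. Deposited mean and background intensity were corrected here by the normexp method (limma 3.58.1, R 4.3.3, offset 50). Irregular spots (125 to 523 per array) and control spots were left out. Values were put on a log2 scale, quantile normalized over the 8 arrays and averaged over repeated probes. Quantile normalization removes any difference in overall recovery between arrays. The binding threshold, 7.81 on the log2 scale, was set with mclust 6.1.1 on the Ago-RNA arrays, 3 SD above the mean of the lower of 2 fitted Gaussian distributions. Differences were counted past 1 over the probes that were well above background on all arrays of a comparison. A probe below background in 1 group has only a bound, against the higher of its own signal and the lowest signal among probes well above background on that array. Places and seed matches come from GENCODE transcripts of mm9. Python 3.11.15 with pandas 2.3.3 and numpy 2.4.6 served for all other values. The normalization was tested on simulated data. The number of arrays limits the precision, and no p-value is given.

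The members, gene lists and measures were chosen with earlier results of these data known. Named are every member and, from each other list, the probes with the lowest and the highest ΔE from ES to ELA and total RNA difference from ES to NPC/Neu, and stage markers. miR-124 was not used here. Alternatives were a normexp offset of 16 or 0, quantile normalization or 75th percentile scaling of the processed intensity, separate normalization of Ago-RNA and total RNA arrays, no filter on dim probes, irregular spots kept and, chosen after seeing the data, normalization without the ES Ago-RNA array.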

Additional observations from a re-analysis of the deposited data

How the results depend on the processing

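Of 6 counts of member probes, 5 moved little with the processing. The number with E of 1 or more in ES was 10 and lay between 10 and 12 over the 7 other settings named above, the number with ΔE of -1 or lower from ES to ELA was 9 and lay between 7 and 9, and the numbers with ΔE of 1 or more from NPC to NPC/Neu (3) and with total RNA up (3) and down (1) from ES to NPC/Neu stayed as they were. The number that met the release criteria, 2, was 1 with 75th percentile scaling and 0 with separate normalization. With scaling to the 75th percentile the Kdm3a probe and the brighter Kdm5b probe lost the call (ΔE of -0.81 and -0.82), and with separate normalization Kdm3a did (-0.93). Leaving the ES Ago-RNA array out of the normalization moved none of the values that can be had without it by more than 1 spot SD, and the cause of the other shifts was not tested. Of 848 values of single probes, 734 moved by less than the spot SD, 114 by more, and none that was past 1 changed sign. Separate normalization raised E of the median probe by 0.12 to 0.21 and 75th percentile scaling lowered it by 0.13 to 0.34, and 46 and 40 of the 114 shifts were under these settings. E was lowest at ELA for 12 of 12 exonic probes under each setting but separate normalization, with 11 of 12, where Kdm3a was lower in NPC (0.18 against 0.20). Dim probes limit what can be said of Kdm4d and of the Kdm4a probe in an intron. No paired analysis was possible because each condition had 1 array and no result came from a test.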
